A study of Homo sapiens with 10 samples.

Results

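Zinc finger genes of the human genome mostly lie in tandem clusters, and 10 such clusters outside chromosome 19 are described here for the chromatin remodeller subunits BRD9 and SMARCB1. The clusters were 10 fixed windows of human build hg19, 5.95 Mb in all: chr3:44400000-44800000, chr5:178100000-178600000, chr6:28000000-28500000, chr7:63400000-65000000, chr7:98900000-99300000, chr7:148700000-149400000, chr8:145900000-146300000, chr10:37900000-38500000, chr12:133400000-133850000 and chr16:3100000-3500000. A peak belonged to a cluster when it overlapped a window by at least 1 bp, which held for 2762 of 543439 peaks over 8 peak lists. Members were thus chosen by position among the peaks that the authors called, and the windows had been selected on sight of earlier peak counts of these lists, so BRD9 levels in the clusters and their differences between groups are given as descriptions, with no test. The 3 windows on chromosome 7 are called proximal, middle and distal in the order given. As a comparison, the flanks, up to 1 Mb on either side of each window, held 4280 peaks in 18 Mb. The chromosome 12 cluster ends at the end of its chromosome and has 1 flank. Flanks were cut at the last peak of a chromosome, so those of the chromosome 8 cluster came to 1.001 Mb, almost all before the window.

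All cells were G401, a single rhabdoid tumour line with the genotype SMARCB1(-/-), in which doxycycline induced either GFP, as the control, or SMARCB1. Both groups therefore carry the same SMARCB1 loss and the same drug treatment, and differ in the induced protein. CUT&RUN, a method that cuts and releases the DNA next to an antibody's target, gave peaks in 3 BRD9 replicates after GFP induction (the GFP lists), 3 BRD9 replicates after SMARCB1 induction (the SMARCB1-induced lists) and 2 SMARCB1 replicates after SMARCB1 induction (the SMARCB1-antibody lists). The labels do not say whether replicates were separate cultures, so the SDs given measure only the spread between these samples, which may be technical.

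Most genes in such clusters encode KRAB zinc finger proteins, which bind DNA, often at transposable elements, and recruit TRIM28 and the histone methyltransferase SETDB1 to silence them. The clusters grew by tandem duplication and are known as broad domains of the histone mark H3K9me3 that also carry transcribed genes. BRD9 is a bromodomain subunit of the non-canonical SWI/SNF remodeller, which lacks SMARCB1, whereas SMARCB1 is a subunit of the canonical and PBAF forms.

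By the RefSeq gene table of GRCh38, the zinc finger neighbours known for these bands include ZNF445, ZNF35 and ZNF501 on chromosome 3, ZNF354A, ZNF354B and ZNF354C on chromosome 5, and ZSCAN9, ZKSCAN3 and ZKSCAN8 on chromosome 6. On chromosome 7 they include ZNF107, ZNF92 and ZNF117 (proximal), ZNF394 and ZKSCAN5 (middle), and ZNF282, ZNF777 and ZNF746 (distal). The remaining bands include ZNF7, ZNF16 and ZNF250 on chromosome 8, ZNF33A and ZNF37A on chromosome 10, ZNF10, ZNF26 and ZNF268 on chromosome 12, and ZNF205, ZNF213 and ZNF263 on chromosome 16. Among the protein-coding genes from the first to the last of the neighbours looked up for a band, zinc finger symbols made up between 8 of 12 on chromosome 16 and 4 of 4 on chromosome 10. The peaks are on hg19 and that table is on GRCh38, so no peak is tied to a gene, exon or promoter here.

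The BRD9 libraries held 10.1 to 13.9 M reads and their lists 35252 to 46448 peaks, and the libraries of SMARCB1 itself held 64.2 and 59.7 M reads. The median cluster peak rested on 18 to 23 reads in the BRD9 lists and on 59.5 and 68.5 reads in the SMARCB1-antibody lists. A place without a peak in a BRD9 list is therefore not shown to lack BRD9.

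The first comparison asked whether inducing SMARCB1 was accompanied by a different amount of BRD9 over the clusters. BRD9 peaks in the clusters numbered 608, 407 and 552 in the lists of GFP-induced cells and 342, 219 and 248 in the lists of SMARCB1-induced cells. Every GFP list lay above every SMARCB1-induced list. Mean numbers were 522 ± 104 and 270 ± 64.3 peaks (SD, n = 3 each), a log2 difference of -0.95. The mean was 48.4% lower with SMARCB1 (from each list's own median score upwards, a cut that differed between lists, the log2 difference was -1.44). Counting all peaks over the whole genome, the same lists did not show this difference. They held 39917 ± 5296 and 42894 ± 3292 peaks (SD, n = 3 each), a log2 difference of 0.10. Whole-list peaks where the control library was sparse were, however, also fewer with SMARCB1, as given below.

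The length covered by BRD9 peaks moved in the same direction with more spread. It was 578, 271 and 472 kb in the GFP lists and 299, 148 and 163 kb in the SMARCB1-induced lists. These groups overlapped, because GFP replicate 2 covered less than SMARCB1-induced replicate 1. Mean lengths were 440 ± 156 and 203 ± 83.1 kb (SD, n = 3 each), a log2 difference of -1.12. With GFP replicate 2 left out the difference was -1.37, and with SMARCB1-induced replicate 1 left out it was -1.50.

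Reads in cluster peaks moved in the same direction. Cluster peaks held 2023, 908 and 1669 reads per M reads of the library in the GFP lists and 965, 542 and 505 in the SMARCB1-induced lists. The groups overlapped here too, with GFP replicate 2 below SMARCB1-induced replicate 1. The control library placed 99.1 to 142 and 60.2 to 90.6 reads per M reads in the same intervals. Peaks of 2 kb or more numbered 56, 9 and 37 in the GFP lists and 18, 3 and 6 in the SMARCB1-induced lists. GFP replicate 2 had few wide peaks, within the range of the SMARCB1-induced lists. The density of a typical peak differed little, with a median of 2.95 to 3.33 RPKM (reads per kb of peak and M reads) in the GFP lists and 2.88 to 3.26 RPKM in the SMARCB1-induced lists.

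As a share of its own list, the BRD9 signal in the clusters was 1.33%, 1.15% and 1.42% of all peaks in the GFP lists and 0.736%, 0.548% and 0.586% in the SMARCB1-induced lists. The 3 lists of one group again did not overlap those of the other. Mean shares were 1.30 ± 0.136% and 0.624 ± 0.0994% (SD, n = 3 each), so SMARCB1-induced lists were lower, with a difference of -0.68 points. This share falls when peaks are added elsewhere, and whole lists of SMARCB1-induced cells held 26078 to 27517 peaks at SMARCB1 regions, against 9352 to 14698 in GFP lists. Among BRD9 peaks that overlap no SMARCB1 region, the share in the clusters was 1.69 ± 0.144% and 1.31 ± 0.0912% (SD, n = 3 each), a smaller difference of -0.37 points (a comparison added after the values were seen).

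**Figure D1:**
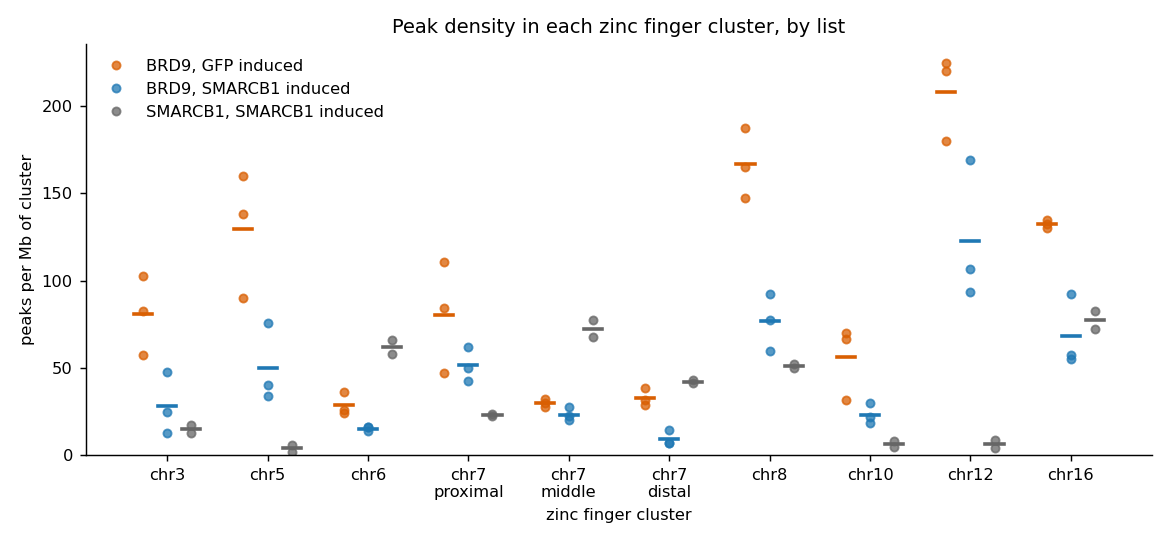
BRD9 and SMARCB1 peaks per Mb (vertical axis) in each of the 10 zinc finger clusters (horizontal axis). Each point is 1 list and each bar the group mean. In 8 of 10 clusters all 3 lists of GFP-induced cells lie above all 3 BRD9 lists of SMARCB1-induced cells, and the chromosome 12 cluster has the highest BRD9 density.

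The mean BRD9 peak number was lower after SMARCB1 induction in 10 of 10 clusters, and in 8 of 10 every GFP list lay above every SMARCB1-induced list. Among 3525 tiles of 500 kb over the genome with at least 10 BRD9 peaks over the 6 lists together, 12.1% met the same criterion. The opposite one was met by 35%. Every cluster held more peaks than that limit, and the tiles were not matched to the clusters in peak number or length. In the flanks of the same clusters the mean was lower in 6 of 10 and the groups did not overlap in 4 of 10. The clusters differed widely among themselves, both in BRD9 density and in the size of the difference.

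The chromosome 12 cluster at the end of the long arm was the densest. It held 101, 81 and 99 BRD9 peaks in GFP-induced cells and 76, 48 and 42 in SMARCB1-induced cells. In the GFP lists this mean of 208 ± 24.5 peaks per Mb (SD, n = 3) was above that of 99.5% of the tiles. Peaks covered 29.5%, 15.3% and 25.5% of the window in the GFP lists and 19%, 8.27% and 7.91% in the SMARCB1-induced lists. All 3 GFP lists exceeded the SMARCB1-induced lists in number, while covered lengths overlapped. The 1 Mb before the cluster held only 2, 9 and 5 BRD9 peaks in the GFP lists and 1, 2 and 0 in the SMARCB1-induced lists.

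**Figure D2:**
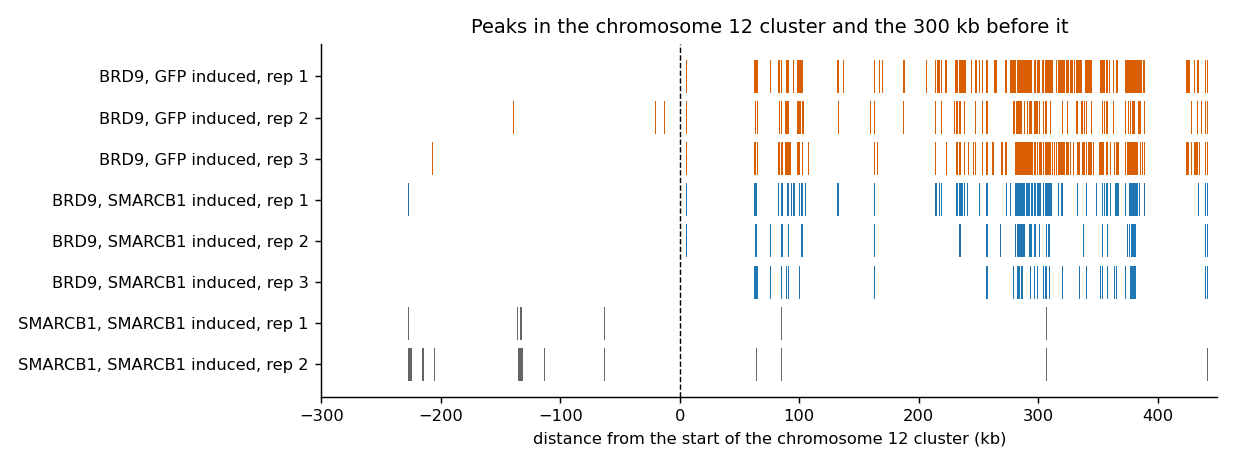
Peaks of each of the 8 lists (rows) across the chromosome 12 cluster and the 300 kb before it, by distance from the start of the cluster in kb (horizontal axis, dashed line at the start). BRD9 peaks fill the cluster in all 6 lists and are sparse before it, and the SMARCB1 rows show few peaks inside.

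Next in density were the clusters of chromosomes 8, 16 and 5. The chromosome 8 cluster held 59, 66 and 75 BRD9 peaks in GFP-induced cells and 31, 24 and 37 in SMARCB1-induced cells. The chromosome 16 cluster had closely matching GFP lists, with 54, 52 and 53 peaks against 37, 23 and 22. The chromosome 5 cluster held 80, 45 and 69 against 38, 17 and 20. In each of these 3 clusters the lists did not overlap between groups, and the mean was 54%, 48.4% and 61.3% lower with SMARCB1 in the order given. They had 167 ± 20.1, 132.5 ± 2.5 and 129 ± 35.8 peaks per Mb in GFP-induced cells (SD, n = 3 each). By single GFP lists chromosome 8 overlapped chromosome 12 and lay above chromosome 16, and chromosome 16 overlapped chromosome 5.

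The proximal chromosome 7 cluster, the longest window at 1.6 Mb, held the most peaks, 177, 75 and 135 in GFP-induced cells and 99, 68 and 80 in SMARCB1-induced cells. Its groups overlapped, since GFP replicate 2 lay below 2 of the SMARCB1-induced lists. The chromosome 3 cluster held 41, 23 and 33 peaks against 19, 5 and 10, and the chromosome 10 cluster 40, 19 and 42 against 18, 13 and 11, both without overlap.

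The remaining clusters were sparse. The distal chromosome 7 cluster had the largest difference, with 27, 20 and 22 peaks in GFP-induced cells and 5, 5 and 10 in SMARCB1-induced cells, a log2 difference of -1.79. The chromosome 6 cluster held 18, 13 and 12 peaks against 8, 7 and 8. The middle chromosome 7 cluster showed the smallest difference, with 11, 13 and 12 peaks against 11, 9 and 8, a log2 difference of -0.36 with overlapping groups.

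The clusters were then set against their own flanks within each list. In peaks per Mb the clusters exceeded the flanks by 3.53, 2.84 and 3.54 times in GFP-induced cells and by 2.80, 1.93 and 2.34 times in SMARCB1-induced cells. Both groups thus had denser BRD9 peaks in the clusters, and the excess was smaller after SMARCB1 induction in every list. On the log2 scale the ratio was 1.72 ± 0.18 and 1.22 ± 0.27 (SD, n = 3 each), a difference of -0.50. For covered length it was 1.68 ± 0.34 and 0.99 ± 0.41, a difference of -0.69 with overlapping groups. The difference in peak number was -0.64 with equal numbers of top peaks and -0.83 in the higher-scoring part of each list. That part began at the list's own median score, which differed between lists. It was 5.28 to 6.74 in the GFP lists and 6.24 to 6.86 in the SMARCB1-induced lists. The part of these unlike cuts in the larger difference was not tested.

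**Figure D3:**
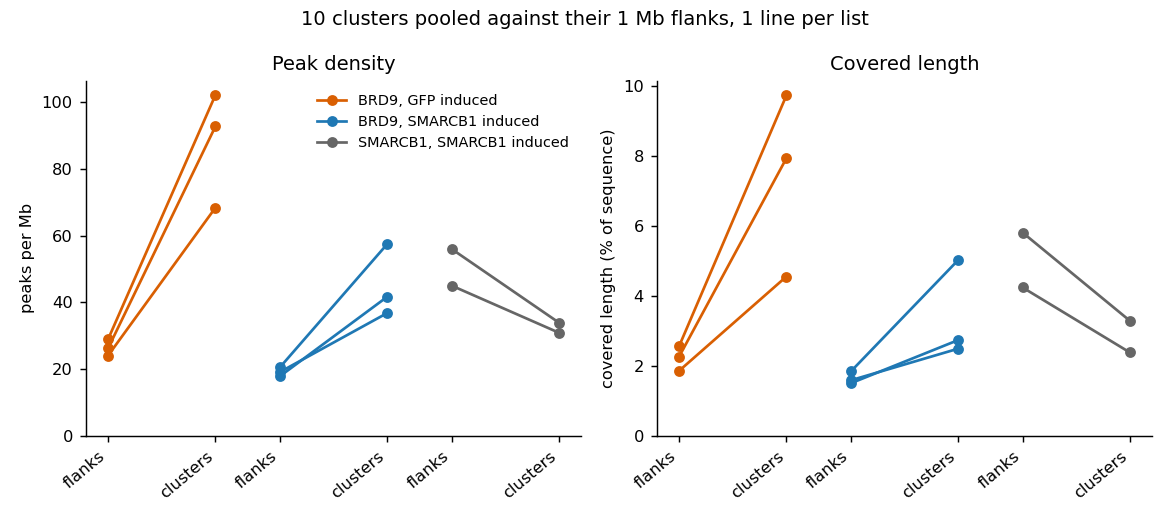
Peaks per Mb (left) and covered length as a percentage of sequence (right) in the 1 Mb flanks and in the clusters, pooled over the 10 clusters. Each line joins the flank and the cluster value of 1 list. BRD9 lines rise from flank to cluster in all 6 lists, in peak density more steeply in each GFP list than in any SMARCB1-induced list, and both SMARCB1 lines descend.

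The flanks themselves were also lower after SMARCB1 induction, by less. They held 521, 433 and 472 BRD9 peaks in GFP-induced cells and 369, 344 and 321 in SMARCB1-induced cells, which did not overlap. Mean flank numbers were 475 ± 44.1 and 345 ± 24 (SD, n = 3 each), a log2 difference of -0.46. This comparison was added after the values were seen and is given as a description. Flank peaks were unevenly spread. The side of the proximal chromosome 7 cluster towards the centromere held 153, 43 and 101 peaks in GFP-induced cells and 63, 25 and 28 in SMARCB1-induced cells. In contrast the side of the chromosome 10 cluster at higher coordinates held 86, 98 and 85 against 88, 85 and 86. Its side at lower coordinates held 45, 19 and 27 against 17, 17 and 5. Without the chromosome 6, proximal chromosome 7 and chromosome 10 windows, which carry most flank peaks and were left out after the values were seen, the cluster-to-flank difference was -0.84 for peak number and -1.22 for covered length.

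The difference from the flanks moved with the density of the control library. Cluster peaks lay where that library was sparse, with a median of 0.20 to 0.27 RPKM in the 6 BRD9 lists, against 0.30 to 0.71 RPKM for flank peaks. When only BRD9 peaks with a control density of 0.5 RPKM or less were kept, an alternative added after the values were seen, cluster peaks still numbered 427 ± 115 and 203 ± 59.1 (SD, n = 3 each), a log2 difference of -1.07. Flank peaks of that kind, however, numbered 277 ± 71.5 and 130 ± 28 (SD, n = 3 each), a log2 difference of -1.09. In whole lists such peaks numbered 23071 ± 7702 and 14706 ± 3489 (SD, n = 3 each), a log2 difference of -0.65. The cluster-to-flank difference was then 0.012 for peak number and -0.07 for covered length. A limit of 0.25 RPKM gave 0.15 and 0.25. A limit of 1 RPKM gave -0.36 and -0.61, beside -0.50 and -0.69 with all peaks. With the limit of 0.5 RPKM and the proximal chromosome 7 window also left out, it was -0.28 and -0.48. The direction and size of the difference from the flanks thus varied with the limit on control density. The part of control density in the result was not tested further.

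Single clusters departed from the pooled ratio. In GFP-induced cells the density over that of the flanks was 39-fold on chromosome 12, where the flank was almost empty, and 13.1-fold on chromosome 3. It was 8.43-fold on chromosome 5, 8.20-fold on chromosome 16 and 7.94-fold on chromosome 8. The chromosome 10 and chromosome 6 clusters were no denser than their pooled flanks, at 0.935-fold and 0.621-fold, but the sides differed. The chromosome 6 cluster had 28.7 peaks per Mb in GFP-induced cells. The 1 Mb before it held 92, 89 and 89 peaks and the 1 Mb after it 1, 6 and 0. The chromosome 10 cluster had 56.1 peaks per Mb, against 45, 19 and 27 peaks before it and 86, 98 and 85 after it. After SMARCB1 induction the ratio was lower in 8 clusters, and it was higher on chromosome 12 (123-fold, over 3 flank peaks in the 3 lists together) and in the proximal chromosome 7 cluster (2.19-fold against 1.48-fold).

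**Figure D4:**
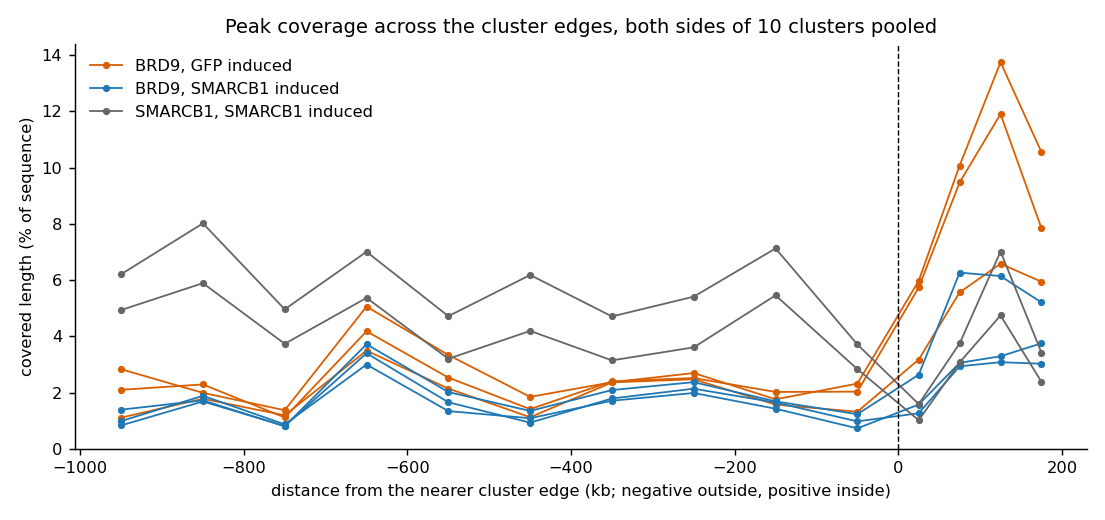
Covered length as a percentage of sequence (vertical axis) by distance in kb from the nearer cluster edge (horizontal axis, negative outside, positive inside), both sides of the 10 clusters pooled, 1 line per list. All 3 lines of BRD9 in GFP-induced cells peak between 100 and 150 kb inside, and both SMARCB1 lines are lowest in the first 50 kb inside.

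BRD9 coverage rose across the window edges. In the 100 kb outside, BRD9 peaks covered 2.32%, 1.32% and 2.03% of the sequence in the GFP lists and 1.23%, 0.976% and 0.727% in the SMARCB1-induced lists. In the first 50 kb inside they covered 5.98%, 3.18% and 5.74% against 2.64%, 1.26% and 1.58%. Between 100 and 150 kb inside, coverage was 13.7%, 6.58% and 11.9% against 6.14%, 3.08% and 3.29%. The step inwards was thus present in both groups, at a lower level after SMARCB1 induction. Flanks were not flat: between 600 and 700 kb outside, coverage reached 5.06%, 3.49% and 4.18% against 3.72%, 3.40% and 3.00%, which in each SMARCB1-induced list was above the first 50 kb inside. Few peaks depended on where the edges were set: each BRD9 list had 0 to 2 peaks across an edge, 4 to 13 that lay within 10 kb inside and 1 to 17 within 10 kb outside.

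SMARCB1 peaks were sparser in the pooled clusters than in their flanks. The 2 SMARCB1-antibody lists had 184 and 202 peaks in the clusters, 30.9 and 33.9 per Mb, and 45.1 and 56.1 per Mb in the flanks. The log2 ratio of clusters to flanks was -0.63 ± 0.13 for peak number and -0.83 ± 0.0074 for covered length (SD, n = 2). The clusters of chromosomes 8 and 10 were exceptions, with SMARCB1 peaks 1.58-fold and 2.22-fold as dense as in their flanks. The chromosome 10 ratio rests on few peaks, 5 and 3 in the cluster and 5 and 7 in its flanks. With 2 lists and no SMARCB1-antibody list of GFP-induced cells analysed here, the ratio of clusters to flanks was not tested. At the edges SMARCB1 covered 2.83% and 3.71% in the 100 kb outside and 1.02% and 1.59% in the first 50 kb inside.

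Regions with a SMARCB1 peak in both replicates numbered 138 in the clusters, unevenly distributed. The proximal, distal and middle chromosome 7 clusters had 27, 22 and 19, and those of chromosomes 16, 6 and 8 had 25, 21 and 13. The clusters of chromosomes 3, 10, 12 and 5 had 5, 3, 2 and 1. The chromosome 12 and 5 clusters, among the densest for BRD9, were thus nearly free of SMARCB1, while the chromosome 16 cluster was dense in both. Across the 10 clusters, BRD9 density in GFP-induced cells and SMARCB1 density had a Spearman correlation of -0.33 (Pearson -0.29), given as a description over windows that share the same libraries.

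BRD9 peaks that overlapped a SMARCB1 region numbered 42, 66 and 47 in GFP-induced cells and 60, 47 and 58 in SMARCB1-induced cells. Here the groups overlapped, with means of 51.7 ± 12.7 and 55 ± 7 (SD, n = 3 each), a log2 difference of 0.09. BRD9 peaks away from SMARCB1 regions numbered 566, 341 and 505 against 282, 172 and 190. Every GFP list lay above every SMARCB1-induced list, and the means of 471 ± 116 and 215 ± 59 (SD, n = 3 each) differed by -1.13 on the log2 scale. The lower number of cluster peaks after SMARCB1 induction thus lay away from SMARCB1 regions. Peaks away from SMARCB1 regions were also fewer in the flanks, with a log2 difference of -0.97, and in the whole lists, with one of -0.80.

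The share of cluster peaks at SMARCB1 regions was 6.91%, 16.2% and 8.51% in GFP-induced cells and 17.5%, 21.5% and 23.4% in SMARCB1-induced cells. The groups did not overlap, and the means of 10.5 ± 4.98% and 20.8 ± 2.98% (SD, n = 3 each) differed by 10.3 points. In the flanks the share was 27.9 ± 11% and 48.9 ± 4.62% (SD, n = 3 each), and in whole lists it ran from 20.5 to 41.7% and from 57.1 to 65.3%. Every BRD9 list thus had a lower share at SMARCB1 regions in the clusters than in the flanks.

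Seen from SMARCB1, 29.0%, 41.3% and 31.2% of the 138 cluster regions held a BRD9 peak in the GFP lists and 42.0%, 31.9% and 39.1% in the SMARCB1-induced lists, so the groups overlapped. Over all 87773 such regions of the genome the shares were 7.41%, 11.6% and 9.11% against 22.4%, 21.5% and 22.5%. In the 584 regions of the flanks they were 13.9%, 24.1% and 17.5% against 24.3%, 25% and 22.4%. The share in the clusters was thus the highest of the 3 in each list, and in the GFP lists the flanks were also above the genome. Whether the change with induction differed between them was not tested.

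**Figure D5:**
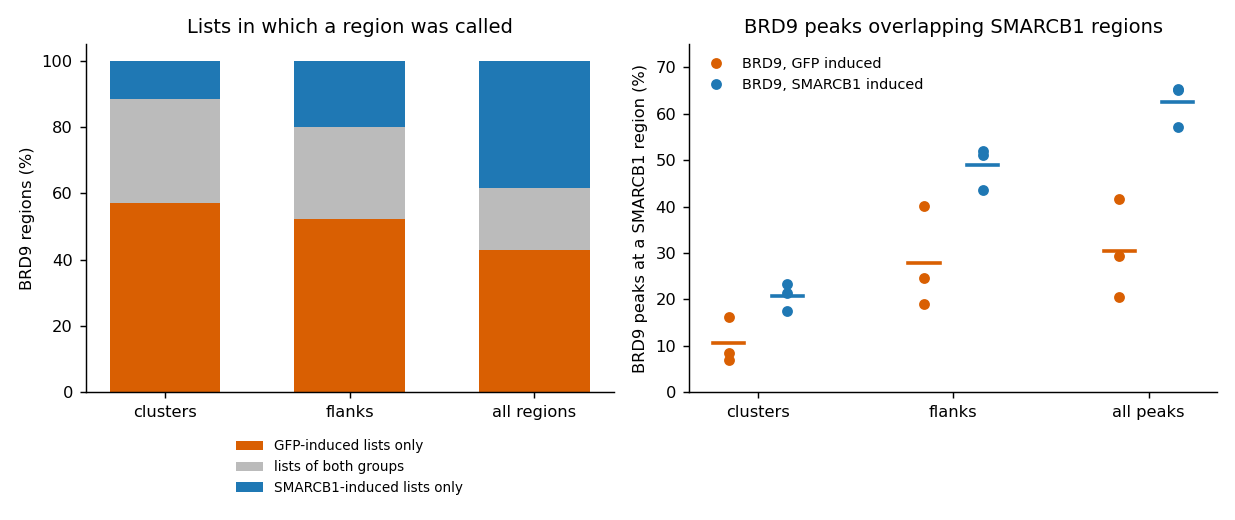
Left: share of merged BRD9 regions (percent) called in lists of GFP-induced cells only, of both groups, or of SMARCB1-induced cells only, for the clusters, the flanks and all regions. Right: percentage of BRD9 peaks that overlap a SMARCB1 region, with 1 point per list and bars at the group means. In the clusters 56.9% of regions were called in GFP lists only and 11.6% in SMARCB1-induced lists only.

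Region by region, overlapping BRD9 peaks of the 6 lists merged into 929 regions in the clusters. A total of 529 (56.9%) were called only in lists of GFP-induced cells, 108 (11.6%) only in lists of SMARCB1-induced cells and 292 (31.4%) in both. Over all merged regions these shares were 42.8%, 38.4% and 18.8%, and in the flanks 52.4%, 20.2% and 27.5%. Of the cluster regions 506 (54.5%) had a peak in 1 list alone, against 62.9% of all regions. Lost regions, with a peak in 3 of 3 GFP lists and 0 of 3 SMARCB1-induced lists, numbered 25 (2.69%), against 1.04% of all 119939 merged regions. Gained regions, the opposite case, numbered 4 (0.431%), against 6.85% of all regions. The flanks showed 7 lost regions (0.672%) and 20 gained ones (1.92%) of 1041. The counts rest on single lists: without GFP replicate 1, 2 or 3 there were 41, 89 and 45 lost regions, and without SMARCB1-induced replicate 1 there were 47, when the rule was applied to the remaining lists. Gained regions numbered 9 without GFP replicate 2, and 11 and 8 without SMARCB1-induced replicates 2 and 3.

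Lost regions lay on chromosome 8 (8), on chromosome 12 and the proximal chromosome 7 cluster (5 each), on chromosomes 10 and 16 and the middle chromosome 7 cluster (2 each) and on chromosome 6 (1). Of the 25, 2 overlapped a SMARCB1 region (8%), near the 102 of all 929 cluster regions that did, while 28.4% of lost regions over the genome overlapped one. Of the 4 gained regions 2 overlapped one, against 95.9% of all gained regions and 20 of 20 in the flanks.

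The lost region that ranked highest by the authors' score lay at chr8:146162795-146165601, with 3.58, 3.37 and 3.35 RPKM in the GFP lists and no peak in the SMARCB1-induced lists. Also on chromosome 8 were chr8:146167776-146169476 (2.99 ± 0.385 RPKM) and chr8:146089776-146091013 (3.22 ± 0.348 RPKM; SD, n = 3 each). The others named by rank were chr10:38390951-38393076, with 3.39 ± 0.489 RPKM, and chr7:99066901-99067801, with 3.76 ± 0.414 RPKM (SD, n = 3 each), of which the latter overlapped a SMARCB1 region. These 5 mean densities, from 2.99 to 3.76 RPKM, were near the medians of all cluster peaks.

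The gained regions were chr16:3264575-3265401 (3.55 ± 0.779 RPKM), chr16:3255750-3256789 (3.42 ± 0.676 RPKM), chr7:64302571-64303296 (3.29 ± 0.374 RPKM) and chr7:99159951-99161126 (2.64 ± 0.489 RPKM; SD, n = 3 each). The first and the last overlapped a SMARCB1 region. Both chromosome 16 regions lay within 10 kb of each other.

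A core of 66 regions (7.10%) was called in all 6 lists, against 4.67% of all regions and 8.55% of flank regions. Of the 66, 20 lay on chromosome 12, 12 on chromosome 16 and 11 in the proximal chromosome 7 cluster. The middle chromosome 7 cluster had 0. Of these 66 regions 17 (25.8%) overlapped a SMARCB1 region, against 59.6% of the regions called in all 6 lists over the genome. Inside the core, peaks covered 195, 121 and 183 kb in the GFP lists and 142, 91.0 and 91.1 kb in the SMARCB1-induced lists, so the groups overlapped. The mean covered length was greater in GFP-induced cells in 54 of the 66 regions (81.8%), against 62.9% of the 89 flank regions and 57.6% of the 5598 regions of this kind over the genome. In 17 of the 66 (25.8%) every GFP list covered more than every SMARCB1-induced list, against 16.9% in the flanks and 13.5% over the genome. The median density was 3.56 ± 0.29 and 3.22 ± 0.23 RPKM (SD, n = 3 each), and 54 of the 66 regions (81.8%) were denser in the GFP mean, against 84.3% in the flanks and 77.5% over the genome.

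The widest BRD9 region of the clusters, chosen after the values were seen, was chr12:133678351-133694751. Peaks covered 15610, 10580 and 14266 bp of its 16400 bp in the GFP lists and 12627, 8779 and 5799 bp in the SMARCB1-induced lists. The next were chr7:63975351-63986926, with 9752, 5263 and 8943 bp against 9136, 5072 and 4595 bp, and chr12:133772676-133784026, with 11231, 6399 and 10428 bp against 8923, 5667 and 6184 bp. None overlapped a SMARCB1 region, and the control library averaged 0.13 to 0.18 RPKM in their peaks. In all 3 the groups overlapped, and the highest cover was in GFP replicate 1.

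For each window 1 region was named, the one called in most lists, with ties going to the highest mean RPKM. The densest of these was chr12:133841001-133841982. It had 16.9, 18.7 and 14.4 RPKM in the GFP lists and 14.1, 21.9 and 15.5 RPKM in the SMARCB1-induced lists. It lay within 10 kb of the window end, with a control density of 5.17 RPKM, and the groups overlapped. The corresponding region of the proximal chromosome 7 cluster was chr7:64953751-64955168, with 14.1 ± 2.90 and 10.4 ± 1.21 RPKM (SD, n = 3 each) and a control of 3.02 RPKM. Neither overlapped a SMARCB1 region.

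Of the 66 cluster regions called in all 6 lists, 17 overlapped a SMARCB1 region. The single regions named on chromosomes 3, 5, 6, 8, 10 and 16 and in the distal chromosome 7 cluster were all among those 17. Those on chromosome 16 (chr16:3413726-3415447) and chromosome 3 (chr3:44400551-44401884) had 5.46 ± 2.18 and 4.98 ± 2.61 RPKM in the GFP lists and 5.14 ± 1.0 and 5.65 ± 1.20 RPKM in the SMARCB1-induced lists (SD, n = 3 each). The region on chromosome 8 (chr8:146011872-146014265) had 4.60 ± 0.356 and 3.89 ± 0.506 RPKM, and that on chromosome 6 (chr6:28303004-28304301) had 4.31 ± 0.523 and 4.36 ± 0.345 RPKM (SD, n = 3 each). The region on chromosome 5 (chr5:178286295-178287235) had 4.54 ± 0.844 and 3.23 ± 0.231 RPKM, and that on chromosome 10 (chr10:38299236-38300356) had 3.72 ± 0.580 and 3.48 ± 0.666 RPKM (SD, n = 3 each). Of these 6, the densities on chromosome 5 alone did not overlap between groups. In the middle chromosome 7 cluster no region was in all 6 lists, and chr7:99138839-99139751 was in 2 lists of each group.

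The distal chromosome 7 cluster held the widest SMARCB1 region, chr7:148838916-148844812, with 2.25 and 2.65 RPKM in the 2 SMARCB1-antibody lists. A BRD9 peak lay on it in all 6 BRD9 lists, and the BRD9 region inside it, chr7:148841176-148843072, had 3.72 ± 0.769 and 3.80 ± 0.252 RPKM (SD, n = 3 each). The other wide SMARCB1 regions were chr6:28364126-28368176, with 1.42 and 1.58 RPKM and BRD9 in 1 list of each group, and chr7:64684976-64688476, with 1.31 and 1.44 RPKM and BRD9 in 0 lists.

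The BRD9 peaks that were present after SMARCB1 induction were mostly at places already called in GFP-induced cells. Of the cluster peaks in the SMARCB1-induced lists, 84.8%, 84.9% and 81.5% overlapped a peak of at least 1 GFP list, against 72.0 ± 1.47% in the flanks and 43.5 ± 0.190% over whole lists (SD, n = 3 each). In the other direction 47.2%, 58.5% and 48.9% of the cluster peaks of the GFP lists overlapped a peak of a SMARCB1-induced list, close to the 47.5 ± 7.47% (SD, n = 3) of whole lists. The former share can also rise with the larger number of cluster peaks in the GFP lists.

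The zinc finger windows of chromosome 19, 14 Mb in 7 windows chosen for this comparison, had 1930 ± 446 BRD9 peaks in the GFP lists and 904 ± 228 in the SMARCB1-induced lists (SD, n = 3 each), a log2 difference of -1.09. The clusters elsewhere, at -0.95, were not shown to differ from them, and this difference was not tested. Lost regions were 3.03% and gained regions 0.607% of those windows' merged regions, beside 2.69% and 0.431% in the clusters off chromosome 19.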

How the data were processed

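Each sample's deposited peak list was used, 8 lists of 10 samples; 2 samples were not analysed here. Reads were aligned with BWA 0.7.12-r1039 to hg19, per the submitters' processing notes, and the peak caller is not given in the sources used here. Per the file headers, the authors deposited for each peak raw read counts and RPKM for the sample and for a control library, a log2 fold difference, and a score that is −log10 of the false discovery rate. Lists of 1 protein share their control library, whose name is not given here. The lowest score of a list was 3.98 to 4.00.

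From these, peaks and covered base pairs were counted per list in the windows and flanks. SMARCB1 regions were merged peaks with a peak of both replicates, and BRD9 regions were merged over 6 lists. Two-sided exact permutation tests over unpaired lists were run for 12 comparisons, 6 of them added after the values were seen. Since the windows were selected with these counts known, no p-value is given. Peaks and regions are not replicates and were only counted. The windows, lists and tests were chosen with earlier results of these data known.

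Named regions were, per window, the BRD9 region in most lists (ties by mean RPKM), up to 5 gained and 5 lost regions by mean score rank, and the 3 widest SMARCB1 regions. Alternatives took peaks above the median score of each list, equal list lengths, peak centres, other flank sizes, SMARCB1 references, overlaps and merging, and leaving out each replicate or window. Limits on control density and leaving out 3 windows together were added after the values were seen. The code was tested on simulated lists. Python 3.11.15, numpy 2.4.6, pandas 2.3.3, scipy 1.17.1 and matplotlib 3.10.9 were used.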

Additional observations from a re-analysis of the deposited data

How the results depend on the processing

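Recomputing gave 228 values, of which 201 were counted as unchanged, 24 moved and 3 reversed. The BRD9 differences counted as unchanged when their sign held, whatever their size. One such value was -0.07 for covered length against the flanks at 0.5 RPKM or less. Of the moved values, 14 were SMARCB1 covered length, judged against an SD of only 0.0074 between lists. No test of 3 lists against 3 can pass 0.05, so only directions are informative. The 3 reversals were in the comparison with the flanks after keeping peaks of low control density, settings added after the values were seen, and a limit of 1 RPKM gave -0.36 and -0.61. At 0.5 RPKM or less the difference in peak number was 0.012, and at 0.25 RPKM or less it was 0.15 for number and 0.25 for covered length. The cause was not tested.

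Leaving out 1 BRD9 list gave log2 differences of -1.16 to -0.82 for peak number and -1.50 to -0.87 for covered length. Against the flanks it gave -0.63 to -0.36 and -0.92 to -0.52. The share of the list moved by -0.75 to -0.62 points, and the share at SMARCB1 regions by 8.43 to 13.1 points. Both were smaller when only BRD9 peaks with a control density of 0.5 RPKM or less were kept, at -0.51 and 4.98 points. Gained regions numbered 5 to 11 and lost ones 26 to 89, when fewer calls were required. Requiring calls in 2 lists or more of a group gave 16 gained and 115 lost regions, and 2 gained regions remained without the chromosome 16 window.

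The SMARCB1 log2 ratio of clusters to flanks was -0.72 to -0.54 for number and -0.83 to -0.82 for length with 1 list left out. Its covered length was -0.86 above the median score, -0.81 with equal lists or peak centres, -0.71 with flanks of 0.5 Mb and -0.78 with 2 Mb. Without 1 window it was -0.81 (chromosome 3 or 6), -0.79 (5 or 12), -0.92 (8), -0.87 (10 or 16) and -0.72 (proximal 7), and without the 3 windows of chromosomes 6, 10 and proximal 7 it was -0.73.

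A check for pairing by replicate number gave correlations of 0.010, 0.0069 and 0.0016 over all regions for replicates 1, 2 and 3. Over cluster regions it gave -0.0023, 0.024 and -0.043. It does not show whether same-numbered lists shared a culture or a batch, and these lists do share peaks. With a replicate block the differences were -0.96, -1.12, -0.50, -0.69, -0.68 and 10.3. The values of -0.50, -0.69, -0.68 and 10.3 equal the unpaired differences by construction. Those of -0.96 and -1.12 average log ratios of the same lists. The block thus gave little or no separate check of direction, though its values count among those unchanged.

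With about 20 reads per BRD9 peak, lost means that no peak was called. Lower score thresholds were not tried, since lists hold no weaker peaks.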
